A study of Rattus norvegicus with 16 samples.

Results

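CN-10 is a stable clone of the rat hepatoma line H35, derived from the Reuber hepatoma, that carries a plasmid for a negative control shRNA and served as the reference in a study of *Pdrg1* silencing. Its expression was measured on 4 of the 16 one-colour Agilent rat arrays of the series, and these 4 arrays were taken alone, with no choice by measured values, to describe which liver functions, lineage factors, isoenzymes and tumour genes the unsilenced cells express. The other 12 arrays, 4 for each group, held clone 3-44 (stable, shRNA3), clone 4-18 (stable, shRNA4) and the shRNA3T pool (cells enriched after transfection with shRNA3, not cloned). All groups were H35 cells in DMEM with 10% serum and 2 mM glutamine, transfected with a plasmid and kept under G418, at 1.8 mg/ml for the pool and finally at 4 mg/ml for the clones. Each stable group was a single clone, so that a property of CN-10 and a property of H35 cannot be told apart, and neither untransfected H35 cells nor liver tissue were analysed here. Each group lay on a slide of its own, so that slide and group cannot be told apart either, and the p-values below measure the spread between replicates of 1 clone or pool.

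Hepatocytes hold their identity through a network of transcription factors (the HNF, FOXA, C/EBP and ONECUT families together with nuclear receptors) that bind one another's genes and the genes of plasma proteins, urea synthesis, gluconeogenesis, bile acids and detoxification. Liver also uses its own form of many common enzymes, such as the L-type pyruvate kinase, whereas fetal liver and many hepatomas use the forms of other tissues and make alpha-fetoprotein. Reuber-type hepatomas are known for keeping part of the adult programme in culture.

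The arrays carried 42877 spots for genes, 30367 probes of 60 bases and 26269 gene names. The upper quartile of the raw signal ran from 2617 to 3512 intensity units on the CN-10 arrays and from 1614 to 3692 on the silenced arrays, no spot was saturated, and 66.8% to 70.6% of the gene spots of CN-10 were marked by the scanner software as well above background. Across 29317 probes, the 6 pairs of CN-10 arrays correlated at Pearson's r of 0.992 to 0.996 and the 48 pairs of a CN-10 and a silenced array at 0.975 to 0.992, and probes are not independent replicates. The targeted gene was measured on every array: *Pdrg1* (probe at chr3:143353382-143353441 of the rn4 rat genome build) had levels of 13.41, 13.88, 13.51 and 13.77 on the 4 CN-10 arrays, against means of 12.65 ± 0.51 in clone 3-44, 12.87 ± 0.87 in clone 4-18 and 12.79 ± 0.27 in the shRNA3T pool. The 4 CN-10 values lay above all 12 silenced ones, and the difference of 0.87 (SE 0.28) had an adjusted p of 0.053 (limma), which missed the threshold.

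A level here is the background-corrected, quantile-normalized log2 intensity of the brightest probe of a gene, given as the mean ± SD over the CN-10 arrays (n = 4 unless stated). It depends on the probe as well as on the RNA, so that levels of different genes rank brightness and are not amounts of transcript. A gene was taken as detected when 1 of its probes was well above background on all 4 CN-10 arrays, and as not detected when no probe was on any of them. By this rule 15395 of 26269 gene names (58.6%) were detected in CN-10, 7179 (27.3%) were not, and 3695 lay between. Of the latter, 431 were above background on every array with a usable spot, the missing array having a spot marked as an outlier; these genes are named below as having a spot set aside. The median SD was 0.174 for probes detected on all 4 arrays. The lowest signal called above background lay between 6.23 and 6.38 on the CN-10 arrays, and levels near it carry no order.

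Control lists set the scale for reading detection. All 20 genes that every cell uses were detected, the dimmest being *Polr2a* at 8.53 ± 0.06, with a median level of 15.71. Of 28 genes of distant tissues, such as pituitary, muscle, testis, lung and mammary gland, 10 were detected (35.7%), among them *Ins1* at 7.36 ± 0.17 and *Prm1* at 7.04 ± 0.17, and 4 of these reached a level of 8: *Pomc* (11.50 ± 0.18), *Actc1* (9.86 ± 0.22), *Csn1s1* (8.77 ± 0.19) and *Sftpc* (8.37 ± 0.35). Detection at a level below 8 was therefore met also by genes of tissues unrelated to liver, and for each list the number of members at 8 or more and detected (those with a spot set aside included) is given too, a limit chosen after these values were seen. *Mbp*, *Snap25*, *Myh6*, *Myh7*, *Gcg*, *Tnp2*, *Gh1*, *Prl* and *Csn2* were detected on none of the arrays, at means of 6.17 to 6.32. Over all gene names the number at 8 or more was 11567 of 26269 (44.0%). Among the 15153 gene names with an accession in the RefSeq table, 61.9% were detected, 25.8% were not and 49.1% were at 8 or more. The listed genes are named genes, so that shares set beside all gene names below should be read with these as well.

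**Figure D1:**
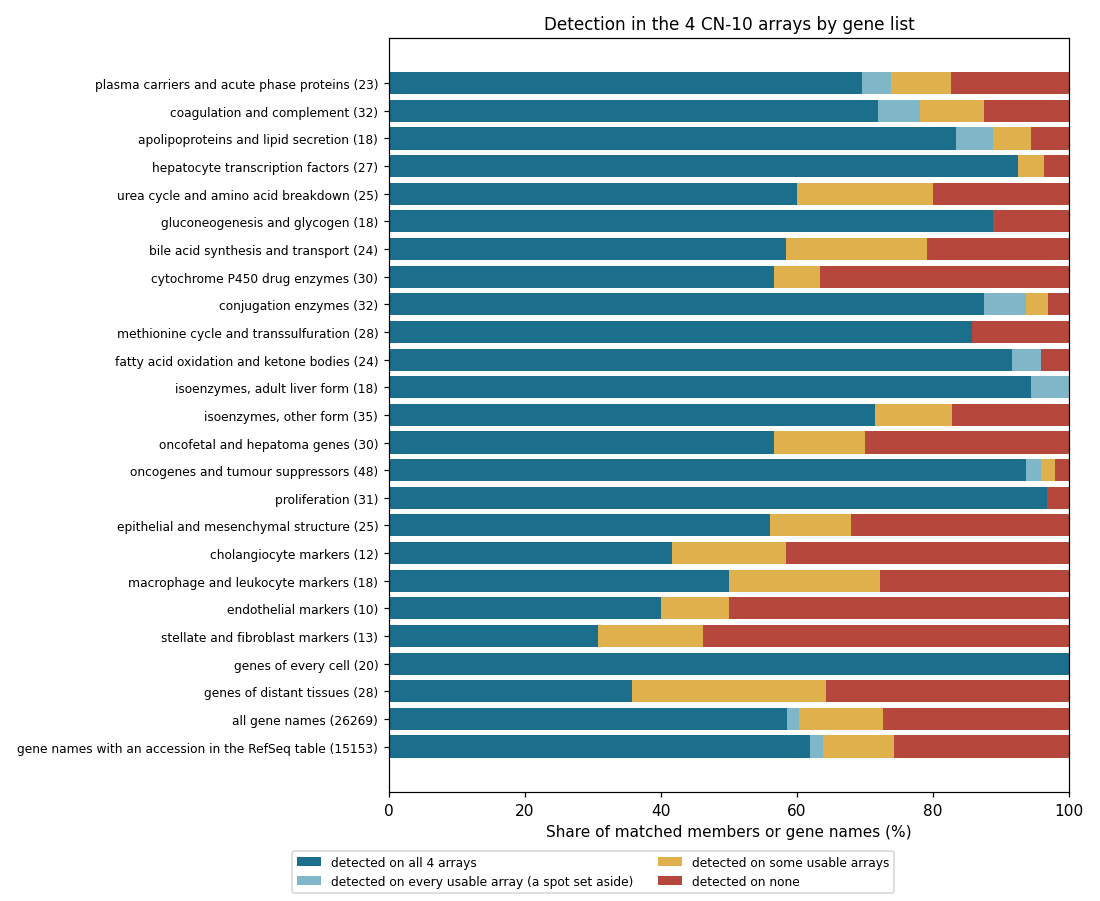
Share of members of each gene list (matched members in brackets, percent) by detection in the 4 CN-10 arrays, with all gene names and those with an accession in the RefSeq table at the bottom. All 20 genes of every cell and all 18 adult liver isoenzymes were detected or had a spot set aside, whereas 11 of 30 cytochrome P450 genes and 7 of 13 stellate and fibroblast markers were detected on none of the arrays.

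Nearly the whole set of hepatocyte transcription factors was present. Of 27 factors on the array, 25 were detected (92.6%, beside 58.6% of all gene names) and 18 of these at 8 or more. The brightest were *Hhex*, a homeobox gene of liver bud formation (14.04 ± 0.62), *Cebpb* (13.85 ± 0.17), *Creb3l3*, a fasting-regulated liver factor (13.42 ± 0.11), *Foxa2* (12.55 ± 0.04), *Onecut1*, also called HNF6 (12.47 ± 0.20), and *Xbp1*, of the secretory pathway (12.26 ± 0.35). *Hnf4a*, a nuclear receptor at the centre of the network, had 7.73, 7.34, 7.35 and 7.11, which lies below 8 on all 4 arrays, as did *Foxa3* (7.11 ± 0.21), *Prox1* (7.32 ± 0.24) and the xenobiotic receptor *Nr1i3* (6.79 ± 0.09). The bile acid receptor *Nr1h4* (11.77 ± 0.12), its target repressor *Nr0b2* (11.70 ± 0.11) and the xenobiotic receptor *Nr1i2* (11.04 ± 0.10) were detected. Only *Esr1*, the oestrogen receptor, was detected on none of the arrays (6.25 ± 0.02), *Nr2f1* was detected on some of them, and *Onecut2* was not matched to a probe.

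Among 23 plasma carriers and acute phase proteins, 16 were detected (69.6%, beside 58.6% of all gene names) and *Ttr* had a spot set aside, all 17 at 8 or more (73.9%, beside 44.0%), and 4 were not detected (17.4%, beside 27.3%). *Alb*, which codes for serum albumin (chr14:19126980-19127039), had levels of 16.48, 16.91, 17.71 and 17.76, at percentile 98.7 of all probes by mean brightness. *Ahsg*, fetuin A, stood at 17.53 ± 0.27 and *Tf*, transferrin, at 16.43 ± 0.61, followed by *Itih3* (13.96 ± 0.11), *Hpx*, hemopexin (13.92 ± 0.11), *Ttr*, transthyretin (13.76 ± 0.59, n = 3), and *Serpina1*, the inhibitor of elastase (13.67 ± 0.38). The members with no detection were *Rbp4*, the retinol carrier (6.19 ± 0.09), *Serpina7*, a thyroxine carrier (6.31 ± 0.09), and the acute phase genes *Orm1* (6.30 ± 0.10) and *Crp* (6.24 ± 0.06). *Serpina6*, corticosteroid-binding globulin, and *A2m* were detected on some arrays.

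Of 32 coagulation and complement genes, 23 were detected (71.9%, beside 58.6% of all gene names), 2 more had a spot set aside (*C3*, 14.16 ± 0.14, n = 3, and *Serpinc1*, antithrombin, 12.67 ± 0.60, n = 3), and 15 in all reached 8 (46.9%, near the 44.0% of all gene names). *F2*, prothrombin (16.27 ± 0.27), *Cfi*, complement factor I (15.29 ± 0.07), the fibrinogen chains *Fgg* (14.57 ± 0.20) and *Fgb* (14.39 ± 0.19), *Plg*, plasminogen (13.32 ± 0.07), and *C8a* (13.18 ± 0.10) were the brightest of those detected on all arrays. The third fibrinogen chain, *Fga*, stood at 9.98 ± 0.49 with its own probe. No signal above background was found for *F7* (6.28 ± 0.13), *F13b* (6.17 ± 0.03) or *C6* (6.34 ± 0.07), and *F9* and *F11* were detected on some arrays. Factor by factor, the clotting cascade was therefore detected in part.

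The apolipoprotein list was close to complete, with 15 of 18 members detected (83.3%, beside 58.6% of all gene names), *Apob* having a spot set aside, and 11 at 8 or more. *Apoe* reached 17.77 ± 0.22 and *Apob*, the backbone of very low density lipoproteins, 15.05 ± 0.04 (n = 2). *Apoa5* (13.05 ± 0.53), *Apoc2* (12.71 ± 0.25), *Apoc3* (11.46 ± 0.50), *Apoc1* (10.45 ± 0.12) and *Apoa1*, of high density lipoprotein (10.16 ± 0.52), followed. *Mttp*, which loads lipid onto apolipoprotein B, was close to background at 7.21, 6.85, 7.08 and 7.21. *Apoh* was detected on none of the arrays (6.36 ± 0.07), and *Pltp* was above background on some of them.

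Of 25 genes of the urea cycle and amino acid breakdown, 15 were detected (60.0%), 14 at 8 or more, and 5 were not (20%), shares near the 58.6% and 27.3% of all gene names. The cycle enzymes *Ass1* (15.74 ± 0.11), *Asl* (13.55 ± 0.10) and *Cps1*, the entry step (10.23 ± 0.06), were detected, whereas *Otc*, which joins carbamoyl phosphate to ornithine, had 6.53, 6.43, 6.39 and 6.53 and was above background on some arrays, as were *Nags* (6.46 ± 0.10), which makes the activator of *Cps1*, and the ornithine carrier *Slc25a15* (6.36 ± 0.09). Tyrosine breakdown was likewise incomplete. *Tat* (9.48 ± 0.08), *Hgd* (13.31 ± 0.55) and *Fah* (13.09 ± 0.21) were detected, but *Hpd*, which lies between *Tat* and *Hgd* in the pathway, had 6.18, 6.34, 6.13 and 6.18 and was not detected on any array. The remaining members without detection were *Agxt* (6.34 ± 0.08), *Acmsd* (6.21 ± 0.05), *Uroc1* (6.21 ± 0.07) and *Aass* (6.10 ± 0.07), of glyoxylate, tryptophan, histidine and lysine breakdown. *Glud1*, glutamate dehydrogenase (14.06 ± 0.10), and *Sdsl* (12.54 ± 0.03) were bright, while *Tdo2*, the hepatic tryptophan dioxygenase, and *Sds* were above background on some arrays.

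**Figure D2:**
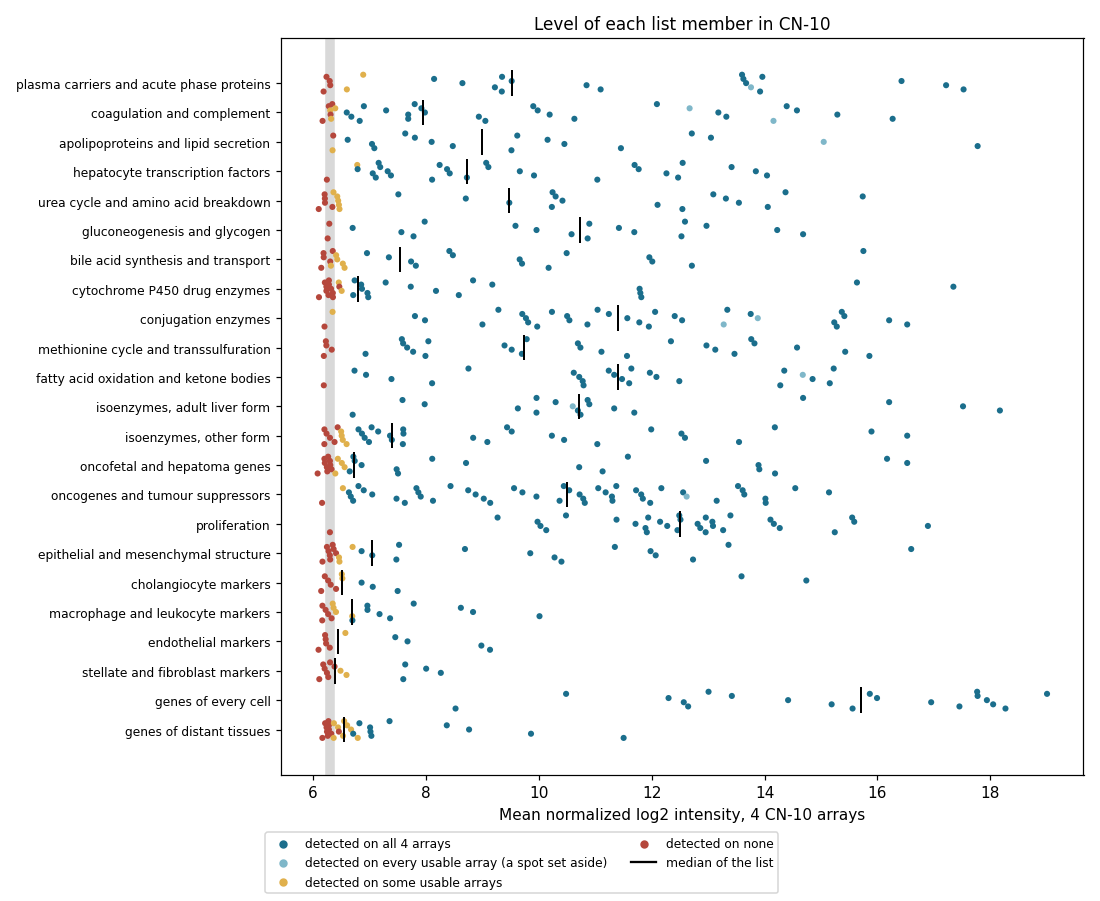
Mean normalized log2 intensity over the CN-10 arrays (horizontal axis) of each matched member of each gene list, coloured by detection, with the median of the list as a vertical line; the grey band is the range of the lowest signal called above background, 6.23 to 6.38. The proliferation list has a median of 12.51 and the conjugation enzymes one of 11.41, whereas the medians of the cytochrome P450 genes (6.80) and of the genes of distant tissues (6.54) lie close to the band.

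Gluconeogenesis and glycogen genes were detected in 16 of 18 cases (88.9%, beside 58.6% of all gene names), 12 of them at 8 or more. *Gys2*, the liver glycogen synthase (14.68 ± 0.12), *Khk*, ketohexokinase (14.22 ± 0.17), the glucose 6-phosphate carrier *Slc37a4* (12.97 ± 0.26), *G6pc*, the last step of glucose output (12.59 ± 0.10), *Pck2* (12.53 ± 0.39) and *Pck1* (11.69 ± 0.48) were the brightest. *Ppargc1a*, a coactivator of the fasting response (6.26 ± 0.10), and *Ppp1r3b*, a glycogen-targeting phosphatase subunit (6.29 ± 0.06), were detected on none of the arrays.

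Adult liver isoenzymes and the forms of other tissues were found side by side. Each of the 18 adult liver forms on the array was detected or, for *Gls2* (10.60 ± 0.36, n = 3), had a spot set aside, and 15 reached 8. Of 35 other forms, 25 were detected (71.4%, beside 58.6% of all gene names) and 6 were not (17.1%, beside 27.3%). Of the 25, 14 were at 8 or more. These were 40% of the 35, beside 44.0% of all gene names and 49.1% of those with an accession in the RefSeq table. At 18 enzyme steps with both kinds of form on the array, the liver form and at least 1 other form were detected together at 14. Since the forms have probes of their own, their levels were not set against each other.

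Forms of an enzyme resemble each other in sequence, so the probes were compared. The following 60-base probes, read from the array files, are shown because the isoenzyme results turn on which form a probe reads; capitals mark the longest run of bases shared with the probe of another form of the same enzyme. Of the *Aldoc* probes, the dimmer is shown. Positions are those of the files on rn4.
Pck1 (chr3:164017597-164017656, plus strand): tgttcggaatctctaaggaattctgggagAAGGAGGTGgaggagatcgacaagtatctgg
Pck2 (chr15:33680356-33680415, plus strand): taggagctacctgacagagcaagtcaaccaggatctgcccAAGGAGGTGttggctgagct
Aldoa (chr1:185972062-185972121, minus strand): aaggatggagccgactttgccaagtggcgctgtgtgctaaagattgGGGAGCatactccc
Aldoc (chr10:64309543-64309602, minus strand): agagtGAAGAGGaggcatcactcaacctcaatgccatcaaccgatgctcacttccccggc
Pkm (chr8:63504373-63504432, plus strand): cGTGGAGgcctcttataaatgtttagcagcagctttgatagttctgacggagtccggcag
Pkm (chr8:63507002-63507061, plus strand): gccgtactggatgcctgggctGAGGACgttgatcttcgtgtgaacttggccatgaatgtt
Acaca (chr10:72499952-72500011, plus strand): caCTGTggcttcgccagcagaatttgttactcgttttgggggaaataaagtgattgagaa
Acacb (chr12:43388775-43389414, minus strand): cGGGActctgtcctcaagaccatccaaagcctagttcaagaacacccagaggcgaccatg
The *Pck1* and *Pck2* probes share a run of 9 bases, the longest among all isoenzyme probes compared, and the other runs marked are of 4 to 7 bases. These runs compare probe with probe, and not a probe with the whole transcript of another form. They therefore do not show that a probe reads its own form alone, which was not tested. The interval of *Acacb* in the files is longer than its probe.

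For glucose uptake and phosphorylation, forms of several tissues were detected. *Slc2a1*, the transporter of proliferating cells, had levels of 13.53, 13.49, 13.78 and 13.39, and the liver transporter *Slc2a2* had 7.89, 7.93, 8.08 and 8.02. *Slc2a3* was not detected (6.30 ± 0.10) and *Slc2a4*, the insulin-regulated transporter, was above background on 1 array (6.50 ± 0.03). *Hk1* (10.23 ± 0.25) and *Hk2* (7.04 ± 0.14) were detected on all 4 arrays, and *Hk3* was on 2 (6.51 ± 0.21).

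Along glycolysis, the liver forms *Pfkl* (10.74 ± 0.13) and *Pklr* (9.75, 9.63, 9.57 and 9.57) were present. *Aldoa*, the muscle and fetal aldolase, was present as well at 15.62, 16.06, 15.96 and 15.94. *Aldoc*, the brain form, had 7.30, 7.15, 7.76 and 7.38 with the brighter of 2 probes, and the probe shown above was above background on 2 arrays. *Pkm*, which codes for the pyruvate kinases of muscle and of proliferating cells, had 6.34, 6.78, 6.52 and 6.74 with the second probe shown above. That probe was above background on 3 arrays, and the first *Pkm* probe was so on none. Which of these kinases each probe reads was not tested, so that neither is called absent here. *Eno1* (18.17 ± 0.24) and *Ldha* (17.52 ± 0.10), the forms that liver shares with most tissues, were bright, *Eno2* (8.84 ± 0.39), *Eno3* (11.04 ± 0.18) and *Ldhb* (7.59 ± 0.20) were detected, *Pfkm* (6.99 ± 0.10) was detected and *Pfkp* (6.53 ± 0.16) was above background on some arrays, and the testis form *Ldhc* was not detected (6.20 ± 0.11). All 4 of *Pfkfb1* (9.96 ± 0.26), *Pfkfb2* (7.60 ± 0.08), *Pfkfb3* (7.60 ± 0.30) and *Pfkfb4* (6.92 ± 0.08), which set the level of fructose 2,6-bisphosphate, were detected.

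For glucose and glycogen synthesis, both *Fbp1*, the liver bisphosphatase (11.03, 10.87, 10.84 and 10.73), and *Fbp2*, the muscle form (14.04, 14.39, 14.21 and 14.08), were detected on every array. *Pygl* (10.90 ± 0.26), *Pygb* (12.59 ± 0.33) and *Pygm* (7.37 ± 0.15), the phosphorylases of liver, brain and muscle, were all detected, and so was the muscle glycogen synthase *Gys1* (11.99 ± 0.22) beside *Gys2*. *Pck1* and *Pck2*, the cytosolic and mitochondrial forms of phosphoenolpyruvate carboxykinase, were both detected.

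Among amino acid enzymes *Gls2*, of glutamine breakdown in liver, was above background on each of 3 usable arrays. Of the acetyl-CoA carboxylases, *Acaca* (7.59 ± 0.27) was detected and *Acacb*, the form that controls fatty acid oxidation, was not (6.44 ± 0.04). *Bcat2* (10.45 ± 0.10) was detected and *Bcat1* was not (6.24 ± 0.10). *Cpt1a* (11.34 ± 0.10), *Cpt1b* (9.09 ± 0.41) and *Cpt1c* (7.16 ± 0.07) were detected, as were *Gsta1* (16.21 ± 0.19) and the placental form *Gstp1*, a classic marker of rat liver tumours (16.45, 16.36, 16.61 and 16.68). Of creatine kinases, enzymes of muscle and brain, *Ckb* stood at 9.44 ± 0.37, *Ckm* at 6.87 ± 0.05 and *Ckmt1* at 6.81 ± 0.18.

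**Figure D3:**
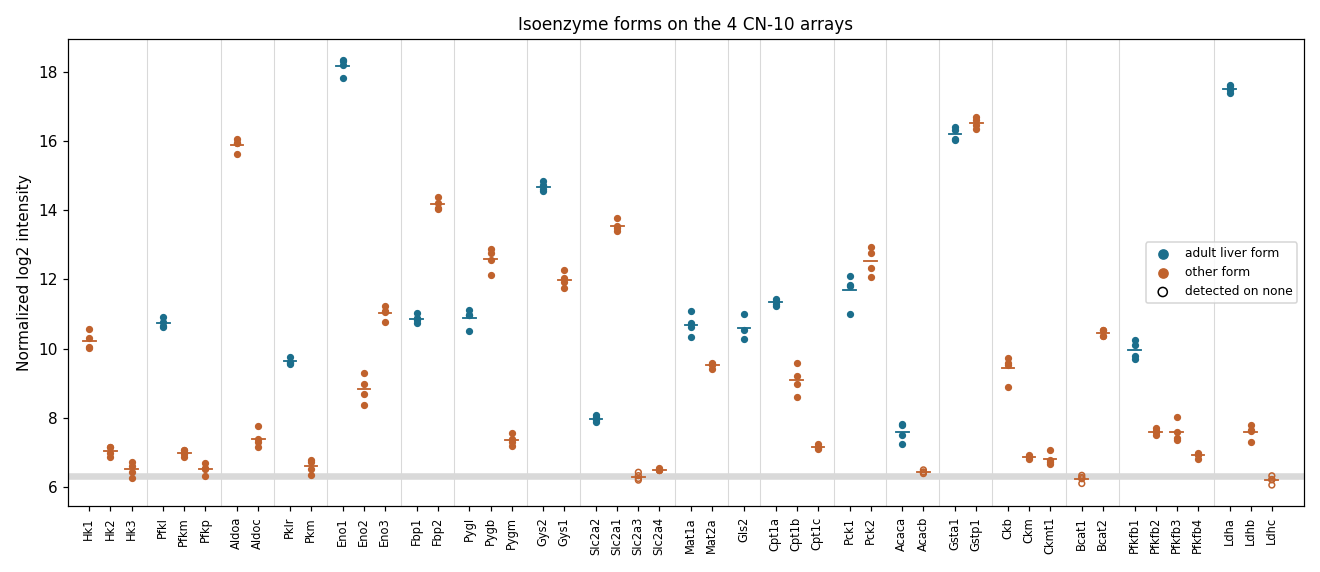
Normalized log2 intensity (vertical axis) of the isoenzyme forms reported here on the CN-10 arrays, 1 point an array and a bar at the mean; blue marks adult liver forms, orange the forms of other tissues, open points genes detected on none of the arrays and the grey band the lowest signal called above background. *Acacb*, *Bcat1*, *Slc2a3* and *Ldhc* lie near the band, and *Pklr* and *Mat1a* lie above it on all 4 arrays.

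In the methionine cycle, which makes and regenerates the methyl donor S-adenosylmethionine and is the setting of the study, 24 of 28 genes were detected (85.7%, beside 58.6% of all gene names), 18 of them at 8 or more. Both catalytic subunits of methionine adenosyltransferase were present. *Mat1a*, the form of adult liver, had levels of 10.62, 10.73, 11.08 and 10.34, *Mat2a*, the form of other tissues, had 9.43, 9.58, 9.55 and 9.53, and the regulatory subunit *Mat2b* had 11.59, 11.54 and 11.56 on the 3 arrays with a usable spot. Between CN-10 and the mean of the silenced groups none of the 3 reached 2-fold, the differences being -0.87 (SE 0.26) for *Mat1a*, -0.07 (SE 0.11) for *Mat2a* and -0.49 (SE 0.24) for *Mat2b*. In the list as a whole 0 of 28 members were called, 12 had an unadjusted p under 0.05 and 7 an adjusted one (limma), where 0 is near the 0.777% of all gene names called higher and 0.773% called lower. *Ahcy*, which removes S-adenosylhomocysteine (15.86 ± 0.35), *Ahcyl1* (15.43 ± 0.17), *Bhmt*, the betaine-dependent remethylation of liver and kidney (14.58 ± 0.19), *Mthfd1* (13.82 ± 0.05), *Shmt2* (13.76 ± 0.46) and *Gamt*, of creatine synthesis (13.47 ± 0.29), were the brightest. Not detected were *Gnmt*, the abundant glycine methyltransferase of adult liver (6.41, 6.27, 6.35 and 6.30), *Dmgdh* (6.23 ± 0.08), and, on the way from cysteine to taurine, *Cdo1* (6.19 ± 0.15) and *Csad* (6.24 ± 0.12). *Cbs* (7.77 ± 0.17) and *Cth* (9.79 ± 0.03), of transsulfuration, were detected.

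Fatty acid oxidation was detected almost throughout, in 22 of 24 members (91.7%, beside 58.6% of all gene names) with *Hadh* having a single usable spot (14.68), and 20 at 8 or more. *Acadl* (15.22 ± 0.10), *Acaa1a* (14.85 ± 0.03), *Etfb* (14.35 ± 0.09), *Acads* (14.28 ± 0.41) and *Slc25a20* (12.49 ± 0.28) were the brightest on all arrays. *Oxct1*, which liver lacks and other tissues need to burn ketone bodies, was not detected (6.19 ± 0.02).

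Of 24 genes of bile acid synthesis and transport, 14 were detected (58.3%, near the 58.6% of all gene names), 10 at 8 or more, and 5 were not (20.8%). Of the synthetic enzymes, *Cyp27a1* (10.17 ± 0.23), *Amacr* (12.01 ± 0.59) and *Hsd3b7* (9.70 ± 0.19) were detected. *Cyp7a1*, the rate-limiting enzyme of the classic pathway, had 6.44, 6.57, 6.58 and 6.53 and *Cyp8b1* 6.42, 6.64, 6.52 and 6.67, both above background on some arrays, and *Cyp7b1* (6.19 ± 0.01) and *Acox2* (6.31 ± 0.07) were not detected. Of the transporters, those not detected were the sinusoidal uptake carrier *Slc10a1* (6.37, 6.31, 6.37 and 6.36), the bile salt export pump *Abcb11* (6.34, 6.20, 6.10 and 6.13) and *Abcg8*, the partner of *Abcg5* in sterol export (6.15 ± 0.07). *Abcb1b*, a multidrug exporter, stood at 15.75 ± 0.36, and *Abcc2* (12.71 ± 0.07), *Abcg5* (11.96 ± 0.35) and *Akr1c14* (10.49 ± 0.27) were detected.

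Cytochrome P450 drug enzymes had the most undetected members of the liver lists, with 11 of 30 members not detected (36.7%, beside 27.3% of all gene names), 17 detected (56.7%, beside 58.6%) and 9 at 8 or more (30.0%, beside 44.0%). The brightest were *Cyp4f1* (17.16, 17.35, 17.43 and 17.44) and the epoxygenase *Cyp2c23* (15.66, 15.62, 15.70 and 15.56), followed by *Cyp2d1* (11.82 ± 0.17), *Cyp4a8* (11.80 ± 0.35), the shared reductase *Por* (11.79 ± 0.45) and *Cyp2d4* (9.18 ± 0.18). The ethanol-inducible *Cyp2e1* had 6.36, 6.36, 6.34 and 6.35, and the sex-specific forms of adult rat liver *Cyp2c11* (6.24 ± 0.23), *Cyp2c12* (6.11 ± 0.08), *Cyp2c13* (6.35 ± 0.07), *Cyp2a2* (6.47 ± 0.04) and *Cyp3a2* (6.32 ± 0.11) were likewise detected on none of the arrays. *Cyp2c7* (6.28 ± 0.11, 3 probes), *Cyp2c22* (6.24 ± 0.15), *Cyp2j3* (6.27 ± 0.11), *Cyp4a2* (6.28 ± 0.08) and *Cyp4a3* (6.21 ± 0.15) complete the 11. *Cyp1a2* (8.58 ± 0.04) and *Cyp2b2* (8.84 ± 0.47) were detected. Genes of these families have near-identical neighbours, so that a probe may read more than 1 of them.

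Conjugation enzymes, by contrast, were nearly all present, with 28 of 32 detected (87.5%, beside 58.6% of all gene names), 2 more having a spot set aside (*Gsta4* and *Gstz1*) and 28 at 8 or more. *Gstp1* and *Gsta1* were joined by *Ugt1a6* (15.41 ± 0.38), *Gsta3* (15.37 ± 0.11), *Mgst1*, the microsomal glutathione transferase (15.28 ± 0.13), and *Gstm1* (15.23 ± 0.28). *Sult1c3* was not detected (6.20 ± 0.09) and *Sult2a1* was above background on some arrays (6.35 ± 0.10). Probes of the *Gsta* and *Ugt2b* families carry older names in the files and were named here through their RefSeq accessions.

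Of 30 oncofetal and hepatoma genes on the array, 17 were detected (56.7%), 11 at 8 or more, and 9 were not (30.0%), shares near the 58.6% and 27.3% of all gene names. *Afp*, which codes for alpha-fetoprotein (chr14:19092583-19092642), had levels of 14.04, 13.98, 13.78 and 13.83, so that the fetal and the adult plasma protein were detected in the same arrays. *Gstp1*, *Akr1b8*, an aldo-keto reductase (16.17 ± 0.37), *Cd24* (14.19 ± 0.22), *Cd44* (13.89 ± 0.56) and *Vil1* (12.96 ± 0.03) were the other bright members. The Wnt target genes *Lgr5* (11.86, 11.69, 11.64 and 11.12) and *Axin2* (11.34, 11.07, 11.13 and 10.98) and glutamine synthetase, *Glul* (10.72 ± 0.10), were detected. *Gpc3*, a surface antigen of many human liver tumours, was detected near background at 6.89, 6.75, 6.74 and 6.58. The fetal growth factor *Igf2* had 6.26, 6.22, 6.38 and 6.34 and was not detected, nor were *Igf2bp1* (6.20 ± 0.08), *Spp1* (6.21 ± 0.04), *Epcam* (6.27 ± 0.08), *Ptn* (6.31 ± 0.10), *Tff3* (6.33 ± 0.11), *Akr1b10* (6.25 ± 0.08), *Spink1* (6.25 ± 0.14) and *Reg3b* (6.08 ± 0.16). *H19*, which neighbours *Igf2*, and *Dlk1* were above background on some arrays (6.44 ± 0.09 and 6.56 ± 0.14).

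Oncogenes and tumour suppressors were detected in 45 of 48 cases (93.8%, beside 58.6% of all gene names) with *Vhl* having a spot set aside, and 35 reached 8. *Nfe2l2*, which drives the oxidative stress response (15.14 ± 0.75), *Cdk4* (14.54 ± 0.26), *Myc* (14.03, 13.92, 14.09 and 14.04), *Cdkn1a*, which codes for p21 (14.01 ± 0.13), and *Pdrg1* (13.64 ± 0.22) were the brightest of those reported here. *Egfr* was the single member with no detection (6.12, 6.17, 6.23 and 6.13), and *Cdkn2b* was above background on some arrays. Detection of a transcript does not tell whether the gene carries a mutation.

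The proliferation list came next to the genes of every cell in the share of members detected on all 4 arrays. It had 30 of 31 members detected (96.8%, beside 58.6% of all gene names), all at 8 or more, and a median level of 12.51 (all gene names, 7.31). With spots set aside counted, the adult liver isoenzymes stood above it. *Rrm2*, a subunit of ribonucleotide reductase (16.89 ± 0.32), *Mcm7* (15.59 ± 0.34), *Cdk1* (15.55 ± 0.06), *Mcm3* (15.24 ± 0.10), *Plk1* (14.27 ± 0.15) and *Ccna2* (14.16 ± 0.11) were the brightest, and *Ccnb2* was not detected (6.30 ± 0.11).

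The labelled cell type was checked with 14 defining hepatocyte markers, of which 12 were detected and the other 2, *Ttr* and *Apob*, had a spot set aside, with levels from 7.38 (*Hnf4a*) to 17.22 (*Alb*). Of 25 genes of epithelial and mesenchymal structure, 14 were detected (56%, near the 58.6% of all gene names). The keratins *Krt18* (16.60 ± 0.31) and *Krt8* (13.36 ± 0.14), *Dsp*, of desmosomes (12.73 ± 0.32), *Tjp1* (12.07 ± 0.17), *Pkp2* (11.98 ± 0.13) and *Cldn2* (11.35 ± 0.35) were the brightest. *Cdh2*, N-cadherin, had 10.37, 10.47, 10.40 and 10.38 and *Cdh1*, E-cadherin, 7.05, 6.90, 7.19 and 7.06. *Snai1* (6.37 ± 0.07), *Snai2* (6.35 ± 0.02), *Twist1* (6.17 ± 0.07) and *Zeb2* (6.25 ± 0.04), which drive a mesenchymal state, were not detected, nor were *Krt7* (6.41 ± 0.08), *Cldn3* (6.31 ± 0.05), *Gjb2* (6.28 ± 0.01) or *Mmp2* (6.30 ± 0.09).

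Markers of the other liver cell types were detected in part. In the lists of cholangiocyte, macrophage and leukocyte, endothelial, and stellate and fibroblast markers, 5 of 12, 9 of 18, 4 of 10 and 4 of 13 members were detected (41.7%, 50%, 40.0% and 30.8%, beside 58.6% of all gene names), of which 2, 3, 2 and 2 at 8 or more. Those not detected numbered 5, 5, 5 and 7 (41.7%, 27.8%, 50% and 53.8%, beside 27.3%), the macrophage and leukocyte share being near that of all gene names. The defining genes without signal were, beside *Krt7*, *Epcam* and *Spp1*, *Sctr* (6.32 ± 0.09) and *Cftr* (6.15 ± 0.11) of bile ducts; *Ptprc* (6.22 ± 0.05), *Cd163* (6.27 ± 0.11), *Marco* (6.33 ± 0.10), *Cd3e* (6.17 ± 0.06) and *Cd8a* (6.16 ± 0.06) of blood cells; *Pecam1* (6.30 ± 0.12), *Tek* (6.10 ± 0.07), *Tie1* (6.23 ± 0.09), *Lyve1* (6.23 ± 0.09) and *Emcn* (6.22 ± 0.15) of vessels. Those of stellate cells and fibroblasts were *Pdgfrb* (6.11 ± 0.02), *Lrat* (6.30 ± 0.08), *Reln* (6.38 ± 0.05), *Dcn* (6.18 ± 0.01), *Lum* (6.21 ± 0.06), *Postn* (6.25 ± 0.08) and *Ngfr* (6.27 ± 0.04). The members that did reach 8 were *Anxa4* (14.74 ± 0.27) and *Slc4a2* (13.59 ± 0.05), *Lyz2* (10.01 ± 0.21), *Cd14* (8.84 ± 0.33) and *Itgam* (8.62 ± 0.17), *Esam* (9.14 ± 0.07) and *Vwf* (8.98 ± 0.53), and *Des* (8.27 ± 0.12) and *Col1a1* (8.01 ± 0.27). In bulk RNA, a few cells with much of a transcript and many cells with little of it cannot be told apart.

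For some genes named here a second, dimmer probe differed in detection. It was above background on none of the CN-10 arrays for *Nr1i3*, *Cbs* and *Itgam*, on 1 for *Plg*, *Serpinc1* and *Col1a1*, on 2 for *Fgb*, *Aldoc* and *Cpt1b*, and on 3 for 1 of 4 probes of *Cd44*.

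By brightness alone, 15 of the 20 top gene names with a symbol were ribosomal protein genes (1 of them a pseudogene), led by *Rpl41* (19.18 ± 0.05), *Rplp0*, *Rps12* (18.95 ± 0.06) and *Rpl21* (18.93 ± 0.26). Both ferritin chains, *Fth1* (18.82 ± 0.04) and *Ftl* (18.53 ± 0.38), and *Tkt*, transketolase of the pentose phosphate pathway (18.38, 18.81, 18.86 and 18.84), were among the other 5. So were *Stfa2*, a stefin-type cysteine protease inhibitor (18.74, 18.68, 18.58 and 18.57), and *Ceacam9*, of the carcinoembryonic antigen family (18.65, 18.44, 18.44 and 18.47), each with 1 probe and each detected on all 16 arrays.

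CN-10 was then set against the mean of the 3 silenced groups to ask how far this baseline is particular to the control clone. The difference of the group means (limma) was called at 2-fold and an adjusted p under 0.05 over all probes, and it holds silencing, clone and slide together, which cannot be told apart. Of 26269 gene names, 204 (0.777%) were called higher in CN-10 and 203 (0.773%) lower. With the processed signal scaled to the 75th percentile, however, 867 were higher and 398 lower (68.5% higher, against 50.1%), and with the deposited series values 369 were higher and 102 lower (78.3% higher), so that the balance of the 2 directions depends on the scaling. For 884 names (3.37%) the CN-10 arrays lay all above or all below the 12 silenced arrays.

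The 8 gene names farthest above the silenced groups were *Cxcl1*, *Mx1*, *Gpx2*, *Cox6a2*, *Ly6d*, *Gpnmb*, *Hamp* and *Id1*, and none of their CN-10 arrays overlapped with a silenced array. *Cxcl1*, a neutrophil-attracting chemokine, had levels of 13.17, 12.92, 13.43 and 12.77 in CN-10 and 8.47 to 10.41 over the silenced arrays, a difference of 3.44 (SE 0.12, adjusted p = 8.9e-11) or 10.8-fold. *Mx1*, an interferon-induced antiviral GTPase, had 11.95, 11.38 and 11.79 on the 3 CN-10 arrays with a usable spot and 7.21 to 10.03 over the silenced arrays (difference 2.90, SE 0.14). For *Gpx2*, a glutathione peroxidase, the difference was 2.64, and it was 2.54 for *Cox6a2*, a muscle subunit of cytochrome c oxidase, 2.45 for *Ly6d*, 2.34 for *Gpnmb*, and 2.23 for *Id1*, an inhibitor of differentiation factors. *Hamp*, which codes for the iron hormone hepcidin, had 11.04, 10.89, 11.47 and 10.98 in CN-10 and means of 10.61 ± 0.26 in clone 3-44, 8.81 ± 0.12 in clone 4-18 and 6.98 ± 0.05 in the shRNA3T pool, so that clone 3-44 lay nearer to CN-10 than the other groups.

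The 8 farthest below included 5 members of the liver and isoenzyme lists, of which 4 are given here. *Aldoc*, the brain aldolase, had 7.30, 7.15, 7.76 and 7.38 in CN-10 and 12.55 to 13.47 over the silenced arrays, a difference of -5.56 (SE 0.13, adjusted p = 2.5e-12) that makes it 47.1-fold lower in CN-10, and its other probe differed by -2.49. *Serpina6* had 7.08, 6.96, 7.05 and 6.47 against 9.55 to 12.47 (difference -3.59, SE 0.16), and since it was above background on 3 of the 4 CN-10 arrays, its size and place rest in part on a value near background. *Mttp*, needed for lipoprotein assembly, had 7.21, 6.85, 7.08 and 7.21 against 9.56 to 10.49 (difference -2.89, SE 0.13), and *Ttr*, the thyroxine and retinol carrier transthyretin, had 13.10, 13.96 and 14.22 on the 3 arrays with a usable spot against 15.56 to 17.07 (difference -2.72, SE 0.29). Each of these 4 genes was brighter on every one of the 12 silenced arrays than on any CN-10 array. The other 3 were *Angptl4*, an inhibitor of lipoprotein lipase (-2.79, SE 0.17), *Insc*, which was above background on 1 of the 4 CN-10 arrays, so that its size and place rest on values near background (-2.74, SE 0.12), and *Rtn2* (-2.66, SE 0.21).

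**Figure D4:**
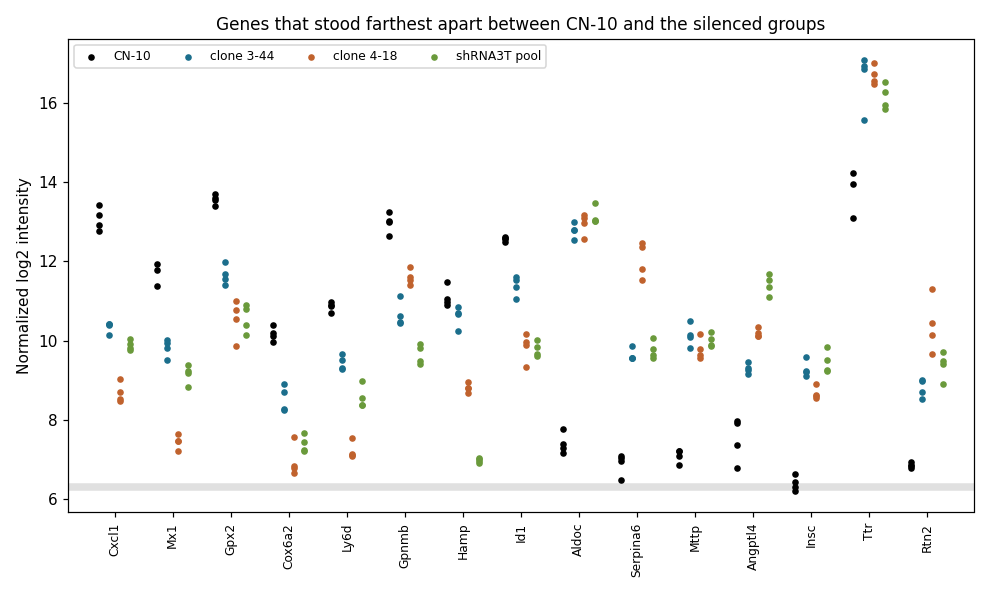
Normalized log2 intensity (vertical axis) of 15 of the 16 gene names farthest above or below the mean of the silenced groups, 1 point an array, coloured by group; the grey band is the lowest signal called above background. For all 15 the CN-10 points (3 for *Mx1* and *Ttr*) lie outside the range of the silenced points, and *Aldoc* has CN-10 points up to 7.76 and silenced points from 12.55.

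Over the liver and isoenzyme lists together, 34 of 319 members (10.66%, beside 0.773% of all gene names and 1.04% of those with an accession in the RefSeq table) were lower in CN-10 than the silenced mean, and 3 (0.940%, beside 0.777%) were higher. The lists were drawn up with earlier results of these data known, so that these shares are a description. A listed member was called by its brightest probe, and over all gene names a call of any probe was counted. Of the 34, the CN-10 arrays lay below all silenced arrays for 19, and 23, 21 and 30 were lower by the same limits against clone 3-44, clone 4-18 and the shRNA3T pool taken singly. Over all gene names the CN-10 arrays lay below all silenced arrays for 390 (1.48%), and 0.746%, 2.79% and 1.23% were lower against the 3 groups. Since the 34 were called with the same arrays, nothing is read from these shares. Of the 34, 10 were lower against each of the 3, among them *Ttr*, *Serpina6*, *Serpinc1*, *Serpinf2*, *Mttp*, *Lipc*, *G6pc* and *Aldoc*. These 3 comparisons share the CN-10 arrays.

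By function, 5 of 23 plasma proteins (21.7%) and 5 of 32 coagulation and complement genes (15.6%) were lower, beside 0.773% of all gene names. Beside *Ttr* and *Serpina6*, *Itih4* differed by -2.09, *Serpina3n* by -2.29 and *Ambp* by -1.09, and of the inhibitors of clotting and fibrinolysis *Serpinf2* had 7.53, 7.78, 7.76 and 7.69 against means of 9.43 ± 0.12 in clone 3-44, 9.78 ± 0.25 in clone 4-18 and 10.43 ± 0.15 in the shRNA3T pool. *Serpinc1* differed by -1.94, *C4bpa* by -1.20, *Fga* by -1.02 and *F10* by -1.01. The silenced groups did not lie on the same side of CN-10 for all of these. *Itih4* had a mean of 9.35 in CN-10 and 12.05 ± 1.24 in clone 3-44, 7.65 ± 0.20 in clone 4-18 and 14.63 ± 0.46 in the shRNA3T pool, and *Fga* had 9.98 and 11.64 ± 0.63 in clone 3-44, 8.73 ± 0.33 in clone 4-18 and 12.63 ± 0.36 in the shRNA3T pool, so that clone 4-18 lay below CN-10 for both. *Alb* differed by -0.04 (SE 0.32, adjusted p = 0.97), which missed the threshold.

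Of glucose and lipid genes, 5 of 18 members of the gluconeogenesis and glycogen list, 4 of 24 of fatty acid oxidation and 3 of 18 of the apolipoprotein list were called lower (27.8%, 16.7% and 16.7%, beside 0.773% of all gene names), and the other members were not called. *G6pc* had 12.53, 12.56, 12.54 and 12.73 in CN-10 and 14.50 to 15.31 over the silenced arrays (difference -2.22, SE 0.06), and *Gys2* had 14.84, 14.61, 14.72 and 14.57 against 15.40 to 18.14 (difference -2.01, SE 0.09). Both groups of arrays stood clear of each other for these 2 genes. *Gckr*, a regulator of glucose phosphorylation, differed by -1.37, with means of 7.96 ± 0.07 in clone 3-44, 10.86 ± 0.25 in clone 4-18 and 7.99 ± 0.34 in the shRNA3T pool, so that most of its difference lay in clone 4-18, and *Pck1* differed by -1.19. The acyl-CoA dehydrogenases *Acads*, *Acadm* and *Acadvl* differed by -1.34, -1.13 and -1.01. *Lipc*, hepatic lipase, differed by -1.80, and *Fabp1*, the liver fatty acid-binding protein, by -2.49, with 9.62 in CN-10 and means of 14.04 ± 0.34 in clone 3-44, 7.99 ± 0.15 in clone 4-18 and 14.30 ± 0.22 in the shRNA3T pool, so that clone 4-18 lay below CN-10.

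Transcription factors among the lower members were *Creb3l3* (13.55, 13.32, 13.46 and 13.33 against 14.12 to 15.46, difference -1.3) and *Nr5a2*, a nuclear receptor of bile acid and cholesterol genes (-1.04). Of drug and bile acid genes, *Cyp2c6v1* (-1.97), *Cyp2d1* (-1.65), *Cyp2d4* (-1.21), *Cyp2d2* (-1.09), *Ugt2b17* (-1.29), *Abcb4* (-1.09) and *Baat* (-1.06) were lower in CN-10, as was *Gls2* (-1.06). *Cyp4a2*, a fatty acid hydroxylase, was not well above background in CN-10 and was at least 2.11-fold lower there. *Hamp*, *Hal*, of histidine breakdown (1.19), and *Ugt2b7* were the 3 higher members, and *Ugt2b7* had 9.28, 9.91, 10.11 and 9.95 in CN-10 and no signal well above background in clone 4-18, being at least 3.60-fold higher than the silenced mean.

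**Figure D5:**
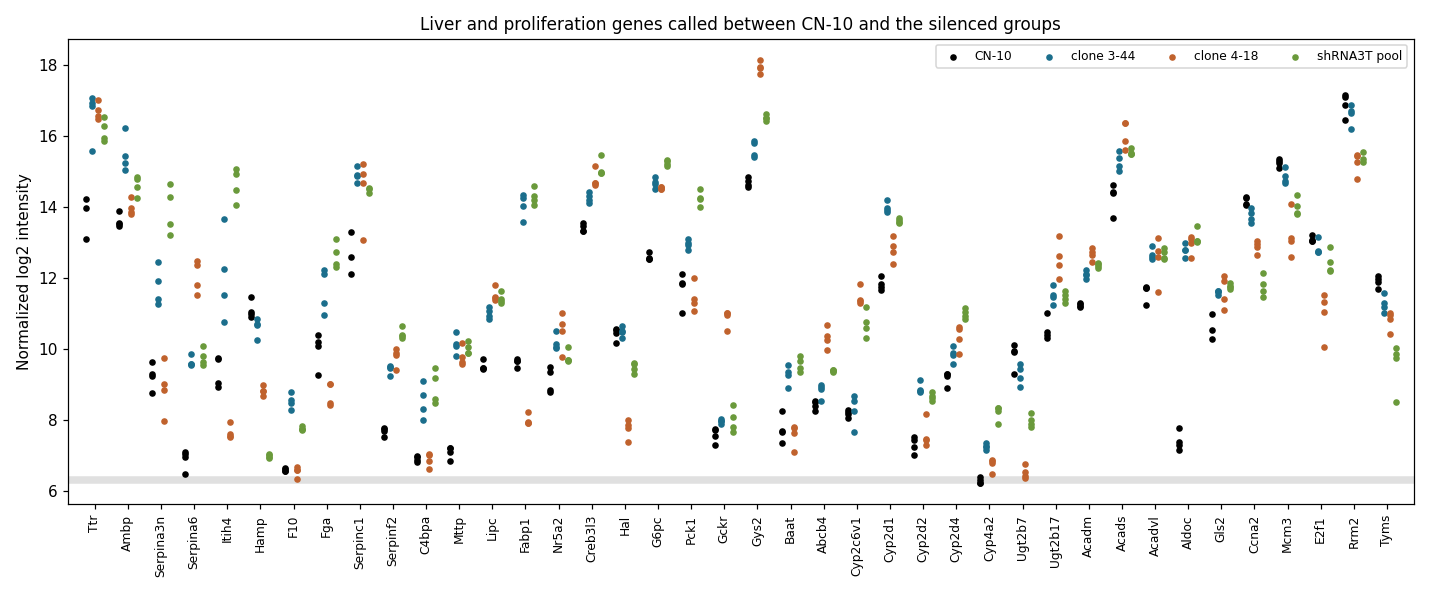
Normalized log2 intensity (vertical axis) of members of the liver, isoenzyme and proliferation lists called between CN-10 and the mean of the silenced groups, 1 point an array, coloured by group; the grey band is the lowest signal called above background. For *Itih4*, *Fga* and *Fabp1* the points of clone 4-18 lie on the other side of CN-10 from those of clone 3-44 and the shRNA3T pool.

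Among tumour genes 0 of 30 oncofetal and 0 of 48 oncogene and tumour suppressor members were called (limma), although 7 and 13 had an unadjusted p under 0.05 and 6 and 6 an adjusted one, with differences under 2-fold. Beside 0.777% of all gene names called higher and 0.773% lower, 0 is near the background for lists of this size. *Afp* differed by 0.37 (SE 0.09, adjusted p = 0.015), below the 2-fold limit. In the proliferation list 27 of 31 members had a positive difference (87.1%, beside 50.7% of all gene names) and 5 were called higher (16.1%, beside 0.777%), *Ccna2* (1.37), *Tyms* (1.36), *Mcm3* (1.23), *Rrm2* (1.15) and *E2f1* (1.00). The mean level of the list ran from 12.43 to 12.54 on the CN-10 arrays, 12.44 to 12.68 in clone 3-44, 11.57 to 11.77 in clone 4-18 and 11.24 to 11.58 in the pool, so that CN-10 overlapped with clone 3-44 and lay above the other 2. These are transcript levels and not growth. The paper reports that crystal violet assays showed no altered growth of the stable clones beside the wild type line. The mean level of the genes of every cell ran from 15.06 to 15.32 in CN-10 and from 14.74 to 15.24 over the silenced arrays. Of markers of other cell types, *Cd14* was called (-1.28, lower in CN-10), and *Sftpc*, of the distant tissues, was called lower as well (-1.37). The mean level of the 13 stellate and fibroblast markers ran from 6.77 to 6.80 on the CN-10 arrays and from 6.67 to 6.76 over the silenced arrays, so that CN-10 lay above all of them. The 12 cholangiocyte markers ran from 7.82 to 7.87 in CN-10 and from 7.67 to 7.82 over the silenced arrays, with CN-10 above all of them as well by a margin lost in rounding. Of the stellate and fibroblast markers 7, and of the cholangiocyte markers 5, were detected on none of the CN-10 arrays. Both orders therefore rest in part on values near background, which carry no order. No member of either list was called (limma), and 2 and 4 of them had an unadjusted p under 0.05. For macrophages the range was 7.07 to 7.10 in CN-10 and 6.93 to 7.28 over the silenced arrays, and for endothelium 6.97 to 7.19 and 6.94 to 7.20, so that both overlapped. The part of the proliferation genes or of these markers in the differences above was not tested.

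Detection itself seldom separated CN-10 from the rest. A total of 5 gene names were detected on all 4 CN-10 arrays and on none of the 12 silenced arrays, and no gene name showed the reverse. Those given here are *Krt19*, a keratin of bile duct and progenitor cells (6.67, 6.91, 7.09 and 6.78), *Gzmb* (6.78, 6.73, 6.87 and 6.77) and *Klra1* (6.84, 6.53, 6.62 and 6.78). All lay within about 1 log2 unit of the lowest signal called above background, and they were at least 1.3, 1.28 and 1.23-fold higher than in the silenced groups, under the 2-fold limit.

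Of the 54 called genes named or listed here, 9 lost the call when 1 array was left out, all with differences close to the limit. *Baat* fell short without CN-10 replicate 2 (-0.93), *Gls2* without CN-10 replicate 2 (-0.90), *Cyp2d2* without CN-10 replicate 1 (-0.99) and *Pck1* without CN-10 replicate 4 (-0.96). *Nr5a2* did so without CN-10 replicate 2 (-0.92) or 3 (-0.95) or clone 4-18 replicate 1 (-0.98). *Acadvl* did so without CN-10 replicate 2 (-0.89), clone 3-44 replicate 1 (-0.99), clone 4-18 replicate 1 (-0.95) or 2 (-0.99), or pool replicate 1 (-0.99). *F10* ended between -0.997 and -0.982 without CN-10 replicate 1 or 2, clone 3-44 replicate 1 or clone 4-18 replicate 4. *Fga* ended between -0.99 and -0.78 without CN-10 replicate 1, clone 3-44 replicate 2 or 3, clone 4-18 replicate 2 or 4, or pool replicate 4. *E2f1* ended between 0.90 and 0.995 without CN-10 replicate 1, clone 3-44 replicate 2, 3 or 4, clone 4-18 replicate 4, or pool replicate 3 or 4.

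Other scalings ended some of these calls too. With the processed signal scaled to the 75th percentile, the difference was -0.83 for *Acads*, -0.54 for *Acadvl*, -0.89 for *Gls2*, -0.67 for *Nr5a2*, -0.77 for *Ugt2b17*, 0.86 for *E2f1* and 0.89 for *Rrm2*, all short of 2-fold. With the deposited series values, it was -0.86 for *Acadm*, -0.87 for *Abcb4*, -0.83 for *Ambp*, -0.99 for *Cyp2d4* and -0.88 for *Pck1*, also short of 2-fold, and *Acadvl*, *Baat*, *C4bpa*, *Cyp2d2*, *F10*, *Fga*, *Gls2* and *Nr5a2* had an adjusted p (limma) of 0.052 to 0.28.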

How the data were processed

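Total RNA of 16 H35 cultures, 4 biological replicates per group by the labels, was hybridised by the authors to one-colour Agilent 4x44K rat arrays and scanned, and Feature Extraction 10.7.3.1 gave 1 value per spot. The deposited scanner files hold mean signal, background and processed signal in linear intensity units, with spot marks that take the value 0 or 1 (well above background, positive and significant, outlier). The deposited series table holds the authors' values as whole numbers without their decimal point and was treated as a score; with the point put back, the values equalled, within rounding of the last digit, the log2 intensity of the median signal after normexp, not scaled between arrays. The submitters' processing notes name limma.

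In the present work the mean signal was corrected against the local background by normexp (offset 50) and the log2 intensity was quantile-normalized over the 16 arrays (limma 3.58.1, R 4.3.3). The 1377 control spots and the spots marked as outliers were left out, and spots of a probe were averaged. A probe was taken as above background on an array where most of its usable spots were so marked, and a gene was represented by its brightest probe in CN-10. Group means were fitted with lmFit and eBayes, and the contrast CN-10 minus the mean of the 3 silenced group means was tested at 2-fold with Benjamini-Hochberg adjusted p under 0.05 over all probes. On simulated data for this contrast (30365 probes), 98 of 100 changes of 1.5 and 100 of 100 of 2.5 on the log2 scale were recovered, with 1 wrong call. The number of arrays limits the precision.

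Names came from the array files, updated by accession through a RefSeq table (assembly GRCr8, names only) that held 17998 of 30367 probes, and probe positions are those of the files on rn4 (29668 probes). The members of the 23 lists (584 entries, 569 matched to a probe) were chosen with earlier results of these data known. The text names the 20 brightest genes, every isoenzyme, the undetected and up to 6 brightest members of the other lists, the called members, *Pdrg1*, *Alb*, *Afp*, the 8 farthest genes in each direction and those detected in CN-10 alone. Some members of the lists and counts are not reported here by name. Further genes were named after their values were seen. No per-sample column was left unmapped. Alternatives were other detection marks and limits, background corrections, scalings, filters, array weights, a replicate block and leaving out each array.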

Additional observations from a re-analysis of the deposited data

Results flagged for a closer look

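Among 109 levels in CN-10, 4 had 1 array apart from the other 3 by Dixon's ratio (the gap to the nearest array over the range of the 4), and chance marks about 1 in 20 groups. *Slc2a4* had its highest level in replicate 3 (6.55, the lowest being 6.48, ratio 0.983), all near background. *Acadvl* had its lowest level in replicate 2 (11.25, the highest being 11.74, ratio 0.923). *Lipc* had its highest level in replicate 1 (9.71, the lowest being 9.44, ratio 0.921). *Cyp2d4* had its lowest level in replicate 3 (8.91, the highest being 9.29, ratio 0.838).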

How the results depend on the processing

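Detection of the 26269 gene names depended on the mark used, since 7179 names were detected on no array, 2458 by the positive and significant mark and 3666 by the 99th percentile of the negative controls. By the positive and significant mark, 8 cholangiocyte, 7 stellate and fibroblast and 17 distant-tissue genes were detected. Lists of liver and tumour genes rose as well by this mark. The urea cycle and amino acid list went from 15 to 20 detected members and the bile acid list from 14 to 19. Cytochrome P450 genes went from 17 to 21 and oncofetal genes from 17 to 20, while all gene names went from 15395 to 18146. At a level of 8 or more, added after the data were seen, the detected members with no spot set aside were 13 for coagulation, 9 for cytochrome P450, 14 for other isoenzyme forms, 11 for oncofetal genes, 2 for cholangiocytes, 3 for macrophages, 2 for endothelium, 2 for stellate cells and 4 for distant tissues. Names higher and lower in CN-10 numbered 204 and 203, against 867 and 398 with the processed signal scaled to the 75th percentile, 369 and 102 with the deposited series values and 937 and 843 at a 1.5-fold limit. Leaving out each array gave 189 to 225 higher and 182 to 234 lower. The cause of these shifts was not tested, apart from the lower fold limit, which admits more names by construction.

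Replicate numbers were not taken to pair the arrays, since deviations of same-numbered arrays correlated at -0.11 to 0.44 and not every pair passed 0.1. For CN-10 replicate 1, however, the best correlated array within each silenced group was the one of the same number. The same held for CN-10 replicates 2 and 3 within the shRNA3T pool, which is a hint from the data. With the replicate number as a block (replicate block) 213 names were higher and 204 lower. None of the 59 gene contrasts followed changed sign under the alternatives run. Of 54 called genes, 7 missed the limits with the processed signal, 13 with the series values, 1 with cyclic loess and 3 with array weights, whereas *Krt19*, *Gzmb* and *Klra1* passed them with the processed signal, although their silenced values lay at background and have no measured size. The dimmest probes, near 6.3, limit what these arrays show of genes at background.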
